A study of Homo sapiens with 8 samples.

Results

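The genes described here are 10 genes of Toll-like receptor signalling, measured in the P-bodies and in the cytosol of leukaemia cells. They are the surface receptors TLR1, TLR2, TLR4 and TLR6, the co-receptors CD14 and LY96, the adaptors MYD88 and TIRAP, and the kinases IRAK1 and IRAK4. They were taken by symbol out of 60196 gene symbols in the count tables, and all 10 were found. The set was chosen by the rise of TLR1, one of the largest in MOLM-13 P-bodies, so the values of these 10 genes from the MOLM-13 comparison of P-body with cytosol are given as a description, without a test.

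The study compared RNA of P-body preparations with RNA of the cytosolic fraction in 2 human acute myeloid leukaemia lines. The 8 libraries form 4 groups of 2, namely MOLM-13 P-body, MOLM-13 cytosol, HEL P-body and HEL cytosol. MOLM-13 has features of monocytes and HEL is an erythroleukaemia line, and each line stands for 1 patient's disease. No treatment or genetic change is given in the labels for any group, and all cells grew in the same kind of medium with serum. The labels do not describe the isolation of the P-bodies. They also do not tie replicates to separate cultures, so the p-values cover the spread between libraries alone, and that spread may be technical.

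P-bodies are cytoplasmic granules that hold messenger RNAs together with repressors of translation and proteins of RNA decay. Toll-like receptors are membrane proteins that sense microbial molecules. TLR2 acts in pairs with TLR1 or TLR6 on bacterial lipoproteins, and TLR4 acts with LY96 (MD-2) and CD14 on lipopolysaccharide. The paired receptors recruit the adaptors TIRAP and MYD88, MYD88 assembles IRAK4 and IRAK1, and the signal passes through TRAF6 and TAK1 to NF-κB. Monocytes are known for carrying this surface set at high levels.

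The mRNAs of the Toll-like receptors differ from those of MYD88, TIRAP and IRAK1 in the base composition of their coding sequence. The split does not follow function throughout, since the kinase IRAK4 lies below the receptors and the co-receptor CD14 lies with the adaptors. Base composition is the feature that most of the P-body values below are set beside. The measure used is the percentage of codons that end in G or C. A stretch of 60 coding bases is shown for 6 of the members that the results turn on, read from GENCODE release 29 on GRCh38, 5′ to 3′, with each G or C at the third position of a codon in capitals. Each stretch is the first in-frame one whose share is nearest to that of the whole coding sequence. Its count was therefore set by that choice and is no separate observation. The percentages quoted for a gene cover its whole coding sequence, and IRAK4 is not among the genes shown.
TLR1: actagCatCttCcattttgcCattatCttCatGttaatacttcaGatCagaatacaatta
TLR6: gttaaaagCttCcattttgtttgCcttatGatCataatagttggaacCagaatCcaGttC
TLR2: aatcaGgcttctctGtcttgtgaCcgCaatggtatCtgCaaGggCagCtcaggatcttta
TLR4: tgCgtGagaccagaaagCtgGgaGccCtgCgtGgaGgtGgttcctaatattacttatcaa
MYD88: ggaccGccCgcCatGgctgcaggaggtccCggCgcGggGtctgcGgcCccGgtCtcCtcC
IRAK1: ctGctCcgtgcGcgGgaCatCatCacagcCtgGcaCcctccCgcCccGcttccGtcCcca

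By that choice, 9 of 20 codons ended in G or C in the stretches of TLR1, TLR2 and TLR6, and 10 in that of TLR4. The stretch of MYD88 had 14 and that of IRAK1 had 15. Over whole coding sequences the share was 27.8% in IRAK4, 38.5% in LY96, 43.2% in TLR6, 45.7% in TLR1, 47.4% in TLR2 and 48.1% in TLR4. It was 66.5% in TIRAP, 71.1% in MYD88, 71.5% in CD14 and 76.7% in IRAK1. The median of tested coding genes was 57.5% in HEL and 57.8% in MOLM-13, so the 4 receptors, LY96 and IRAK4 lay below it and the other 4 members above it. IRAK4 stood near the lower end of all genes, with 0.419% of coding genes tested in HEL below it.

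The annotated spans of TLR1 and TLR6 overlap on the minus strand of chromosome 4, at chr4:38790677-38856817 and chr4:38823715-38856817, and their annotated exons share 57 bases. Their coding sequences also hold an identical run of 218 bases, at positions 1379 to 1596 of the TLR1 coding sequence and 1394 to 1611 of that of TLR6. It is shown because reads from such a run could be assigned to either gene.
TLR1 and TLR6: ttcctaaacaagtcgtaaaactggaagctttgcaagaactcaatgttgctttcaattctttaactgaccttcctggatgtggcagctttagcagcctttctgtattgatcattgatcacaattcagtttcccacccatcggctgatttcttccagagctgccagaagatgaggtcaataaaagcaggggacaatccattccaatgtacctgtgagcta
Of the 50-base windows of the TLR1 transcript, 8.5% were also found in the TLR6 transcript, and 4.08% of the TLR6 windows were found in TLR1. No 50-base window of TLR1 was found in TLR2, TLR4 or TLR10. Other members lie at chr4:153684070-153705702 (TLR2), chr9:117704175-117724730 (TLR4), chr5:140631728-140633701 (CD14), chr3:38138478-38143022 (MYD88), chr11:126283065-126298845 (TIRAP), chrX:154010500-154019980 (IRAK1) and chr12:43758944-43789543 (IRAK4). TIRAP overlaps the antisense genes AP001318.1 and AP001318.2, and without a stated strand setting their reads cannot be told apart. TLR4 shares 558 exon bases with AL160272.2 on the same strand, so reads from those bases could be assigned to either gene.

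Total counts ran from 5897625 to 11000536 in MOLM-13 libraries and from 13153551 to 18071473 in HEL libraries. The summed level of 19 monocytic marker genes was 2760 to 2814 counts per 1000000 counts of the scaled library (CPM) in MOLM-13 P-body and 4459 to 4640 CPM in MOLM-13 cytosol, against 90.3 to 91.6 CPM in HEL P-body and 109 to 112 CPM in HEL cytosol. All 19 had counts in MOLM-13, while MPO, CD68, IRF8, ELANE and S100A9 were at 0 in both HEL groups. The summed level of 18 erythroid and megakaryocytic markers was 127 to 129 CPM in MOLM-13 P-body and 110 to 112 CPM in MOLM-13 cytosol, against 2293 to 2341 CPM in HEL P-body and 3301 to 3486 CPM in HEL cytosol. All 13 mitochondrially encoded mRNAs were lower in P-body than in cytosolic libraries in both lines. The summed level of 6 nuclear-retained noncoding RNAs was 3792 to 3804 CPM in MOLM-13 P-body and 5199 to 5482 CPM in MOLM-13 cytosol. In HEL it was 930 to 994 CPM in P-body and 749 to 817 CPM in cytosol. The fractions of the lines thus differed in these RNAs, and carry-over of nuclear RNA was not tested. Fewer cells carrying an mRNA and less of it per cell cannot be told apart in such bulk samples.

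In HEL, 3 of the surface receptors and the kinase IRAK4 were higher in P-bodies than in the cytosol. TLR1 was 5.30-fold higher, TLR4 2.97-fold, TLR6 2.01-fold and IRAK4 1.90-fold. MYD88 was 1.53-fold lower, and TLR2, TIRAP and IRAK1 did not pass the test. Counts were compared with edgeR's quasi-likelihood test, scaled by the trimmed mean of M-values (TMM), and a gene was called at an adjusted p under 0.05 over all genes tested. Of 8 members tested, 4 were higher, 1 was lower and 3 were not called. Across all 14772 genes tested, 27.5% were called higher, 27.1% lower and 54.6% in either direction. The median log2 change of the 8 members was 0.39, and that of all genes tested was -0.06.

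TLR1, the receptor that pairs with TLR2 on triacylated lipoproteins, had 7.78 and 6.83 CPM in HEL P-body, against 1.36 and 1.38 CPM in HEL cytosol. The groups did not overlap, although the cytosolic values rest on 20 and 24 counts. Its log2 change was 2.41 ± 0.26 (SE, n = 2 libraries a group), with an adjusted p of 1.5e-06 by edgeR's quasi-likelihood test. That change was above 99.6% of the genes tested in HEL. The members were chosen with earlier results of these data known, so this rank is a description.

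TLR4, the lipopolysaccharide receptor, had 39.8 and 34.7 CPM in HEL P-body, against 11.4 and 13.5 CPM in HEL cytosol. Its log2 change was 1.57 ± 0.13 (SE), with an adjusted p of 1.2e-07 by edgeR. TLR6, the partner of TLR2 on diacylated lipoproteins, had 7.52 and 6.70 CPM in HEL P-body, against 3.80 and 3.29 CPM in HEL cytosol. Its log2 change was 1.01 ± 0.22 (SE), with an adjusted p of 0.00110 by edgeR. Both P-body libraries lay above both cytosolic libraries for each of these receptors.

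TLR2 itself, the partner of both TLR1 and TLR6, did not follow them in HEL. It had 0.376 and 0.325 CPM in HEL P-body, against 0.883 and 0.692 CPM in HEL cytosol, which is 6 and 5 counts against 13 and 12. The P-body libraries were the lower ones, with a log2 difference of -1.14 ± 0.52 (SE) and an adjusted p of 0.0812 by edgeR's quasi-likelihood test. TLR2 was called under 3 of 11 alternatives, namely library totals (-1.46, edgeR adjusted p 0.0254) and removal of a trend with GC content and length without and with a replicate block (-1.82 and -1.83), and the adjusted p over the 11 ran from 0.0103 to 0.403. In HEL, TLR2 passed the filter through its cytosolic counts alone, so a lower P-body value was favoured in advance. Its calls under alternatives therefore give that direction no support. Alternatives beyond the 11 gave TLR2 no adjusted p. The co-receptors gave no comparison in HEL, since LY96 had no count in any library and CD14 had 1 count in all.

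IRAK4, the kinase that starts the IRAK cascade, had 53.9 and 53.0 CPM in HEL P-body, against 28.3 and 28.1 CPM in HEL cytosol. Its replicates were close to each other, and the log2 change was 0.92 ± 0.10 (SE) with an adjusted p of 1.9e-06 by edgeR. IRAK1, its substrate, had 120 and 125 CPM in HEL P-body, against 131 and 147 CPM in HEL cytosol. The log2 difference of IRAK1 was -0.18 ± 0.084 (SE), with an adjusted p of 0.0762 by edgeR, and without HEL cytosol replicate 1 it was -0.27. Over 13 alternatives it ran from -0.51 to 0.44, and IRAK1 was called under 5 of them. Those calls went in opposite directions, lower with library totals and higher with the GC and length trend removed.

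MYD88, the adaptor shared by nearly all Toll-like receptors, had 36.4 and 25.6 CPM in HEL P-body, against 50.3 and 44.5 CPM in HEL cytosol. The P-body replicates stood further apart than those of TLR4, IRAK1 and IRAK4 in the same libraries. Its log2 change was -0.61 ± 0.14 (SE), with an adjusted p of 0.00200 by edgeR. Without HEL P-body replicate 2 the change was -0.29 and the adjusted p was 0.0765, so this call rested on that library, and the adjusted p ran from 3.1e-08 to 0.150 over 13 alternatives of edgeR and DESeq2. TIRAP, the adaptor that bridges MYD88 to TLR2 and TLR4, had 10.03 and 8.85 CPM in HEL P-body, against 9.71 and 11.0 CPM in HEL cytosol, and the groups overlapped.

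**Figure D1:**
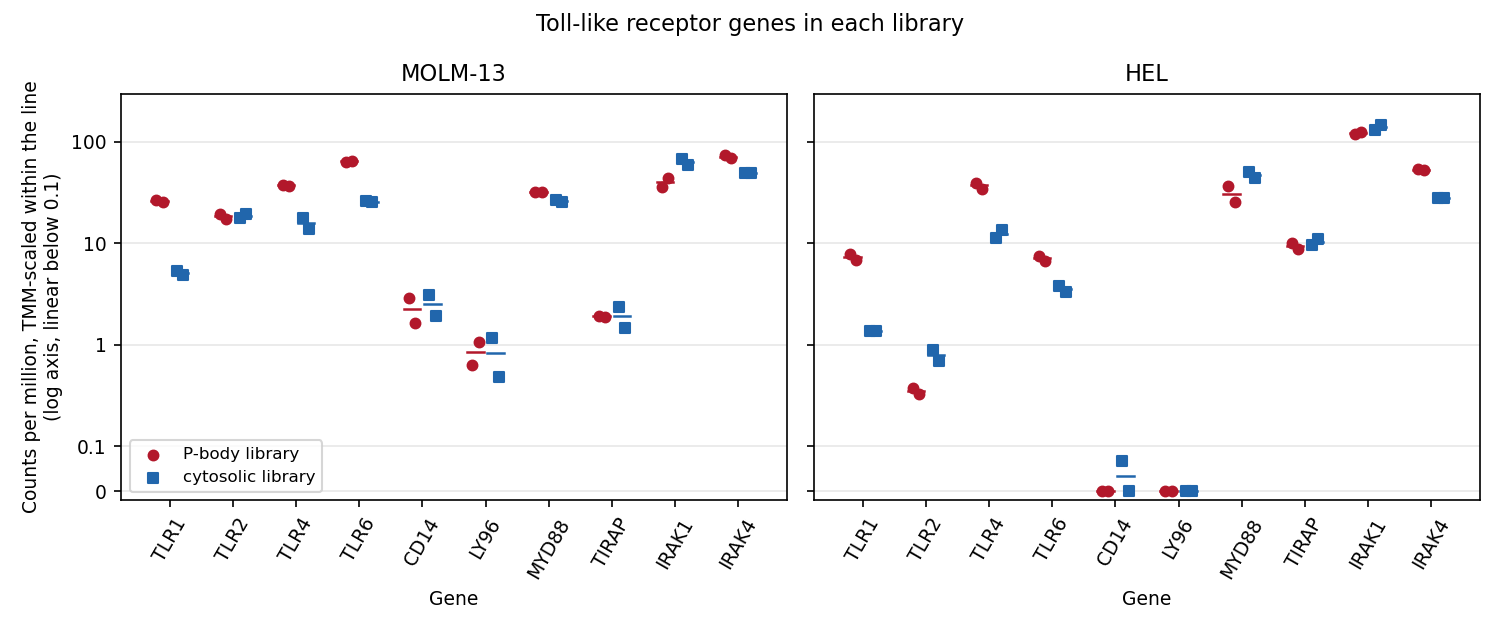
CPM (TMM-scaled within a line, log axis, linear below 0.1) of the 10 genes in each P-body library (circles) and cytosolic library (squares), with short lines at the mean of 2 libraries, for MOLM-13 at the left and HEL at the right. TLR1 had 26.5 and 25.6 CPM in MOLM-13 P-body against 5.31 and 4.84 in MOLM-13 cytosol, and 7.78 and 6.83 in HEL P-body against 1.36 and 1.38 in HEL cytosol, while CD14 and LY96 lay at or near 0 in HEL.

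In MOLM-13 the same 3 receptors had higher levels in P-body libraries. TLR2 was about level under TMM scaling, and the co-receptors overlapped between the fractions on few counts. TLR1 had 26.5 and 25.6 CPM in MOLM-13 P-body, against 5.31 and 4.84 CPM in MOLM-13 cytosol, a 5.15-fold difference with a log2 value of 2.36 ± 0.17 (SE). It stood at rank 9 of 14089 genes tested, between GAPT at rank 8 with a log2 value of 2.37 and BORA at rank 10 with 2.35. TLR6 had 63.2 and 65.2 CPM in MOLM-13 P-body, against 25.97 and 25.7 CPM in MOLM-13 cytosol, which is 2.49-fold. TLR4 had 37.7 and 37.1 CPM in MOLM-13 P-body, against 17.9 and 13.9 CPM in MOLM-13 cytosol, which is 2.38-fold. For these 3 receptors each P-body library was above each cytosolic library.

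TLR2 had 19.3 and 17.5 CPM in MOLM-13 P-body, against 17.7 and 19.5 CPM in MOLM-13 cytosol. Unlike in HEL, these values rest on more than 100 counts in each library, and the groups overlapped, with a log2 difference of -0.015 ± 0.14 (SE). CD14, the co-receptor that hands lipopolysaccharide to LY96 and TLR4, had 2.87 and 1.66 CPM in MOLM-13 P-body, against 3.10 and 1.94 CPM in MOLM-13 cytosol. LY96 (chr8:73991352-74029087) had 6 and 9 counts in MOLM-13 P-body, against 8 and 4 counts in MOLM-13 cytosol, too few to enter the fit. Thus the TLR4 level, as a scaled share of each library, was higher in P-body than in cytosolic libraries. The values of both its co-receptors overlapped between the fractions, on counts too low to show that they were level.

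Downstream of the receptors, IRAK4 had 74.7 and 68.9 CPM in MOLM-13 P-body, against 49.9 and 49.1 CPM in MOLM-13 cytosol, a 1.45-fold difference. IRAK1 lay the other way, with 36.2 and 44.6 CPM in MOLM-13 P-body, against 67.4 and 59.6 CPM in MOLM-13 cytosol, which is 1.57-fold lower. MYD88 had 32.2 and 32.0 CPM in MOLM-13 P-body, against 26.7 and 25.5 CPM in MOLM-13 cytosol, which is 1.23-fold higher. Scaled by library totals, MYD88 turned to a log2 difference of -0.14. TIRAP had 1.91 and 1.90 CPM in MOLM-13 P-body, against 2.36 and 1.45 CPM in MOLM-13 cytosol, and its groups overlapped.

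The changes of the members in the lines were set side by side as values, with no test, because the MOLM-13 comparison chose the set. The differences come from a fit of all 8 libraries, whose scaling factors are not those of the fits within a line. They are therefore not subtractions of the log2 changes given above. In that fit the MOLM-13 minus HEL difference was -0.23 ± 0.30 (SE) for TLR1, 0.11 ± 0.22 for TLR6 and -0.52 ± 0.20 for TLR4. It was -0.58 ± 0.13 for IRAK4, -0.66 ± 0.14 for IRAK1 and 0.72 ± 0.20 for MYD88. TLR2 had 0.92 ± 0.49 and TIRAP -0.026 ± 0.40. The median over all genes was -0.11. Without HEL P-body replicate 1 the differences were 0.18 for TLR1, -0.10 for TLR4, -0.25 for IRAK4, -0.38 for IRAK1 and 1.31 for MYD88, so their sizes, and the sign for TLR1, depended on that library. For TLR1 the difference was 0.078 without HEL cytosol replicate 1 and 0.039 without HEL cytosol replicate 2.

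Scaling shifts all of these values together. Scaled by library totals instead of TMM, the median log2 change of all genes moved by -0.44 in MOLM-13 and by -0.32 in HEL. The split of called genes in HEL then went to 2762 higher and 6761 lower, instead of 4061 higher and 4006 lower, and in MOLM-13 to 2903 higher and 7154 lower, instead of 4558 higher and 4015 lower. TLR1, TLR4, TLR6 and IRAK4 kept a positive log2 change in both lines under library totals. TLR2 in MOLM-13, at -0.015 under TMM, moved down with the other genes, so its near-level value there depended on the scaling.

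**Figure D2:**
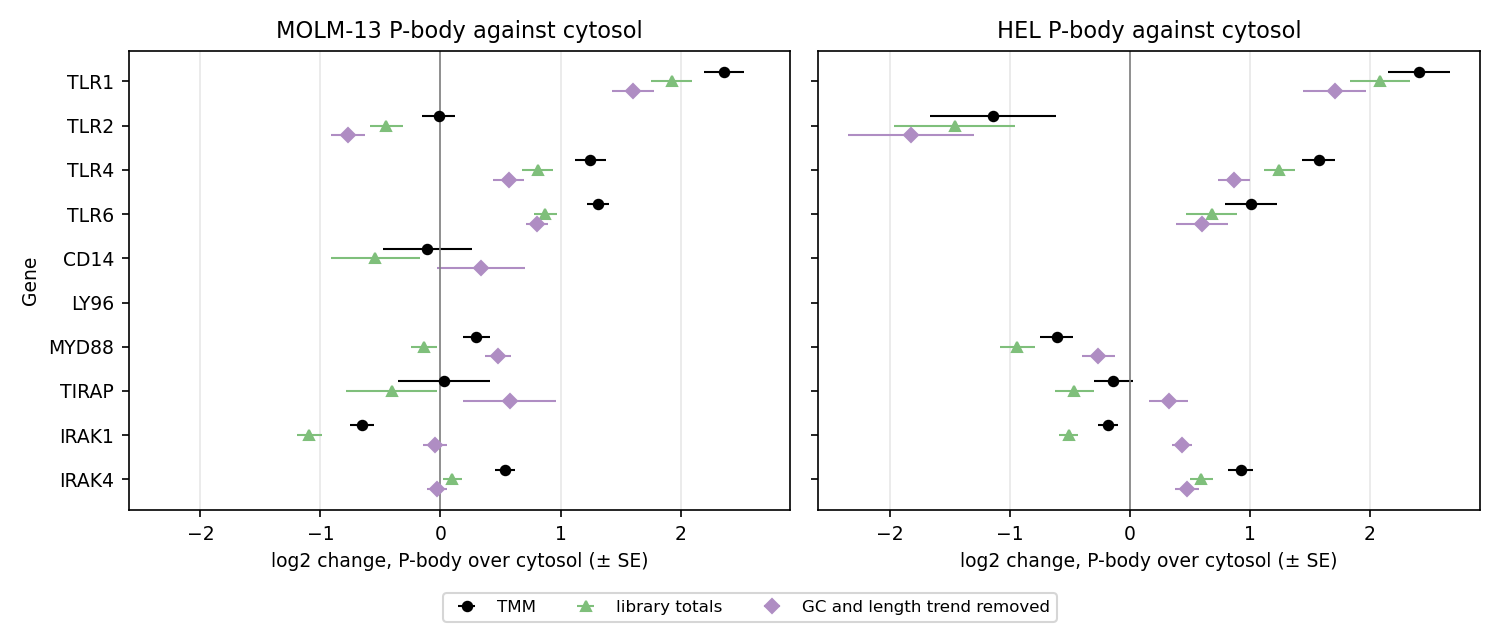
Log2 change of P-body over cytosol (horizontal axis, ± SE of the fit, 2 libraries a group) for the member genes in MOLM-13 (left) and HEL (right), scaled by TMM (circles), by library totals (triangles) and after removal of the trend with GC content and transcript length (diamonds). TLR1 had log2 changes of 2.36 in MOLM-13 and 2.41 in HEL under TMM, and 1.60 and 1.71 with the trend removed; genes too low for the fit have no symbol.

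The level of a gene over both fractions differed between the lines for most members, a comparison that the choice of the genes did not use. In one edgeR fit of all 8 libraries, with MOLM-13 over HEL averaged across the fractions, 6 members were higher in MOLM-13, 3 were lower and TLR4 was not called. That is 9 of 10, beside 88.5% of 17477 genes tested, of which 45.8% were higher and 42.7% lower, so the share called is near that of all genes. CD14, with 1 count in HEL, and LY96, with none, passed the filter through their MOLM-13 counts alone. The direction of their calls was thus fixed in advance. TLR2, with 36 counts over the HEL libraries, also passed the filter through MOLM-13, so a higher MOLM-13 value was favoured in advance.

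TLR2 differed most among the receptors. On the scale of all 8 libraries it had 16.9 to 20.5 CPM in the 4 MOLM-13 libraries, against 0.331 to 0.850 CPM in the 4 HEL libraries. The lines did not overlap, and the difference was 35.2-fold (log2 5.14 ± 0.18 SE). It is given as a description, because TLR2 passed the filter through its MOLM-13 counts alone. TLR6 had 27.0 to 62.9 CPM in MOLM-13 libraries, against 3.18 to 7.68 CPM in HEL libraries, which is 8.22-fold (log2 3.04 ± 0.10 SE, edgeR adjusted p 2.4e-17). TLR1 was 3.67-fold higher in MOLM-13 (log2 1.87 ± 0.15 SE, edgeR adjusted p 1.9e-10), although its MOLM-13 cytosol values of 5.52 and 5.10 CPM lay below its HEL P-body values of 7.93 and 6.95 CPM. Within each fraction both MOLM-13 libraries were above both HEL libraries for TLR1, TLR2 and TLR6.

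TLR4 was the receptor that was not called between the lines. It had 14.7 to 36.6 CPM in MOLM-13 libraries, against 11.0 to 40.6 CPM in HEL libraries, ranges that pool both fractions. In the cytosol both MOLM-13 libraries, at 18.6 and 14.7 CPM, lay above both HEL libraries, at 11.0 and 13.1 CPM. The P-body libraries of the lines overlapped. The log2 difference over both fractions of 0.19 ± 0.10 (SE) had an adjusted p of 0.0794 by edgeR, which does not show that the levels were alike. Over 14 alternatives of edgeR and DESeq2 that adjusted p ran from 0.00141 to 0.778, and TLR4 was called under 4 of them, with log2 differences of 0.26 without HEL P-body replicate 1, without HEL cytosol replicate 2 or without MOLM-13 cytosol replicate 2, and 0.40 when only genes of at least 5 CPM in 2 libraries were kept. Its co-receptors stood further apart, since CD14 had 78 counts in MOLM-13 and 1 count in HEL. Relative to library size that is a ratio of 152, with a 95% interval of 26.5 to 6077 that covers counting error only. LY96 had 27 counts in MOLM-13 and none in HEL, at least 17.5-fold higher when HEL is set at a floor of 3 counts over its libraries.

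The signalling genes ran the other way, apart from IRAK4. IRAK4 was 1.56-fold higher in MOLM-13 (log2 0.64 ± 0.067 SE, edgeR adjusted p 1.1e-08). TIRAP had 1.53 to 2.45 CPM in MOLM-13 libraries, against 9.01 to 10.7 CPM in HEL libraries, which is 5.16-fold lower (log2 -2.37 ± 0.18 SE, edgeR adjusted p 5.8e-11). IRAK1 had 35.1 to 70.1 CPM in MOLM-13 libraries, against 122 to 143 CPM in HEL libraries, which is 2.55-fold lower (log2 -1.35 ± 0.069 SE, edgeR adjusted p 4.3e-14). The lines did not overlap for TIRAP or IRAK1. MYD88 was 1.31-fold lower in MOLM-13 (log2 -0.39 ± 0.098 SE, edgeR adjusted p 0.00103), its lines overlapped, and it was not called when only genes of at least 5 CPM in 2 libraries were kept (adjusted p 0.104).

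Between genes, levels were compared per kilobase of transcript. In MOLM-13 cytosol IRAK1 was at 18.1 ± 1.4 CPM per kb (SD, n = 2), IRAK4 at 12.1 ± 0.012 and MYD88 at 10.2 ± 0.23. TLR2 at 4.63 ± 0.36 and TLR6 at 4.59 ± 0.0045 CPM per kb did not differ beyond their spread. Per kilobase of coding sequence TLR2 was at 8.26 and TLR6 at 11.3, so their likeness depended on the length used. TLR1 at 1.86 ± 0.10, TIRAP at 1.58 ± 0.52, LY96 at 1.43 ± 0.84, CD14 at 1.39 ± 0.44 and TLR4 at 1.29 ± 0.21 CPM per kb came last, and neighbours in that order lay within their spread. In MOLM-13 P-bodies the order of the receptors per kilobase was TLR6 at 10.6 ± 0.19, TLR1 at 8.85 ± 0.26, TLR2 at 4.25 ± 0.31 and TLR4 at 2.81 ± 0.043. TLR1 was thus below TLR2 in the cytosol of MOLM-13 and above it in the P-bodies.

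In HEL cytosol the order per kilobase was IRAK1 at 36.6 ± 3.2 CPM per kb (SD, n = 2), MYD88 at 17.0 ± 1.4, TIRAP at 7.92 ± 0.74 and IRAK4 at 6.36 ± 0.011. The receptors followed, with TLR4 at 0.938 ± 0.12, TLR6 at 0.582 ± 0.057, TLR1 at 0.465 ± 0.0081 and TLR2 at 0.181 ± 0.030 CPM per kb. In HEL P-bodies IRAK4 at 12.7 ± 0.18 and MYD88 at 11.7 ± 2.9 CPM per kb did not differ beyond their spread, and TLR4 at 2.95 ± 0.29 and TLR1 at 2.61 ± 0.24 were the highest receptors. The TLR4 transcript used here is 12853 bases long with a coding sequence of 2520 bases, so its place depends on the length chosen. Per kilobase of coding sequence TLR4 stood at 14.4 in MOLM-13 P-bodies, against 25.97 for TLR6 and 10.7 for TLR1. In HEL P-bodies TLR1 was then at 3.15 and TLR6 at 3.03.

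Across all coding genes, a low share of codons ending in G or C went with a higher P-body value. Spearman's rho between the log2 change and that share was -0.72 over 11212 genes in MOLM-13 and -0.64 over 11926 genes in HEL, as a description across genes, which are not independent. Genes with a share of 40% to 50% had a median log2 change of 0.59 in MOLM-13 and 0.35 in HEL, and genes with 70% to 80% had -0.46 in both lines. The receptors with 43.2% to 48.1% therefore belong to an interval that was higher in P-bodies as a whole, and MYD88, CD14 and IRAK1 to one that was lower.

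A trend fitted over GC content and transcript length gave each member a value to be set against its own. For TLR1 the trend value was 0.76 in MOLM-13 and 0.70 in HEL, so that log2 changes of 1.60 and 1.71 were left once it was removed. In HEL, TLR4 kept 0.87, TLR6 kept 0.60 and IRAK4 kept 0.48, and these 3 genes and TLR1 were still called in that line. MYD88 in HEL was at -0.26 with the trend removed and no longer called, with an adjusted p of 0.150 by edgeR. IRAK1 in HEL turned to 0.44, with an adjusted p of 0.000568 by edgeR, while the adjusted p over all 13 alternatives ran from 0.000227 to 0.507. In MOLM-13, TLR6 kept 0.80 and TLR4 kept 0.57, whereas IRAK4 and IRAK1 came to -0.03 and -0.05. TLR2 went further down with the trend removed, to -0.77 in MOLM-13 and to -1.82 in HEL. Its share of codons ending in G or C was close to that of the other receptors. The HEL value of TLR2 rests on few counts and on a filter passed through the cytosol alone, so it lends that direction no support.

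**Figure D3:**
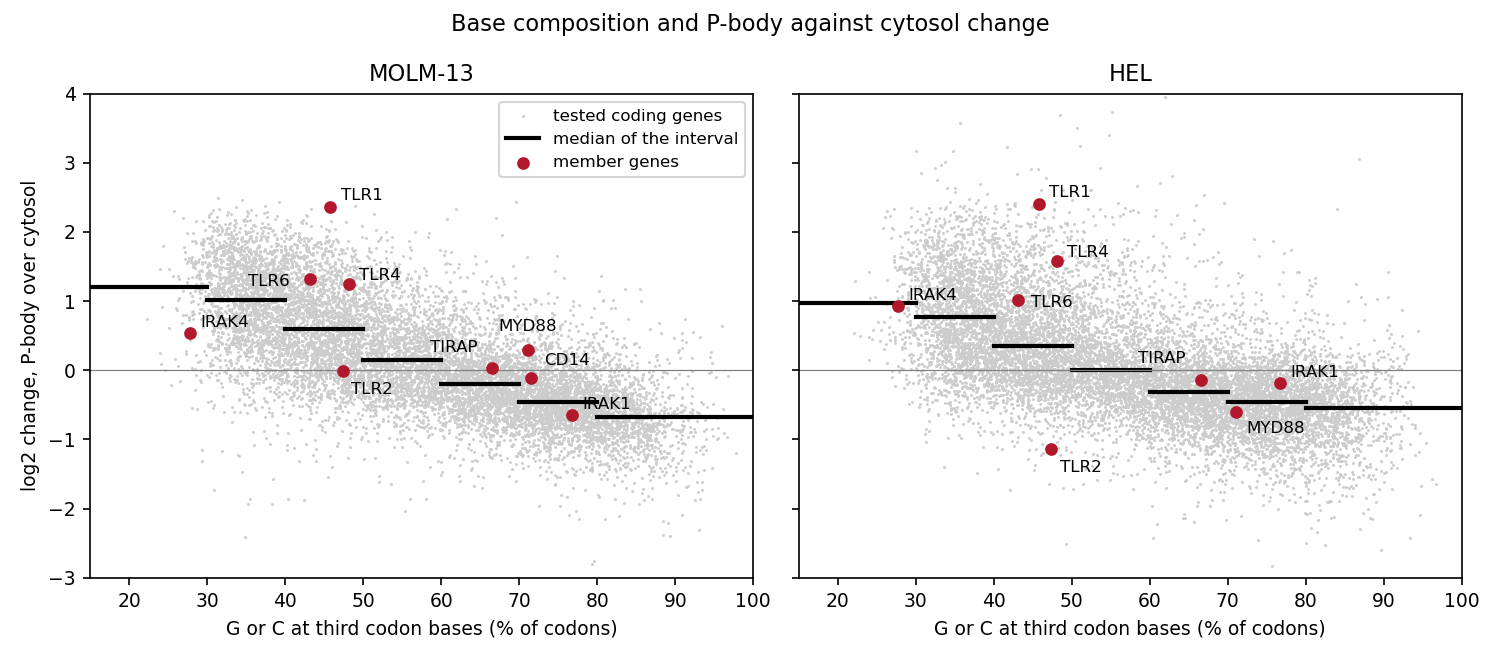
Log2 change of P-body over cytosol (vertical axis) against the percentage of codons with G or C at the third base (horizontal axis) for tested coding genes (grey points), with the median of each interval (black lines) and the member genes (red), for MOLM-13 (left) and HEL (right). TLR1, at 45.7%, had log2 changes of 2.36 in MOLM-13 and 2.41 in HEL, above the interval medians of 0.59 and 0.35. TLR2, at 47.4%, lay below them in both lines, in HEL on few counts and after a filter that favoured a lower value.

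The rest of the pathway was followed in lists of 80 genes in all, chosen with earlier results of these data known, which hold none of the 10 members. In MOLM-13 60 of them were tested, of which 24 were higher in P-bodies, 16 were lower and 20 were not called, with a median log2 change of 0.22. Among all genes tested in MOLM-13, 32.4% were higher and 28.5% lower, 60.8% in either direction, with a median of -0.04. In HEL 61 were tested, of which 21 were higher, 21 were lower and 19 were not called, with a median of -0.21, beside 27.5% higher and 27.1% lower among all genes.

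These counts depended on the processing, as did those of all genes. With library totals the lists had 20 higher and 26 lower in MOLM-13, beside 20.6% and 50.8% of all genes, and 14 higher and 36 lower in HEL, beside 18.7% and 45.8%. With the GC and length trend removed they had 26 higher and 6 lower in MOLM-13, beside 29.9% and 18.4% of all genes, and 15 higher and 12 lower in HEL, beside 23.2% and 21.5%. Calls named below are those of the TMM-scaled edgeR fit, and each call that was lost with library totals or with the trend removed is named beside it.

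Genes that kept their call and direction in both lines under library totals and with the trend removed were TRAF6, CHUK, TBK1, TANK, CYLD, NFKBIA, TNFAIP3 and IL1B, all higher in P-bodies. TRAF6, the ubiquitin ligase downstream of IRAK1, had 45.5 and 48.1 CPM in MOLM-13 P-body, against 14.2 and 19.5 CPM in MOLM-13 cytosol, which is 2.75-fold. In HEL it had 39.9 and 39.8 CPM in P-body, against 21.4 and 20.7 CPM in cytosol, which is 1.89-fold. The kinase CHUK (IKKα) was 2.64-fold higher in MOLM-13 and 2.49-fold higher in HEL, and the kinase TBK1 was 2.34-fold higher in MOLM-13 and 2.33-fold higher in HEL. TANK, a scaffold of TBK1, was 3.77-fold higher in MOLM-13 and 2.43-fold higher in HEL.

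The other genes of that group include inhibitors of NF-κB signalling. NFKBIA (IκBα) was 1.69-fold higher in MOLM-13 P-bodies and 2.15-fold higher in HEL P-bodies. TNFAIP3 (A20) was 2.21-fold higher in MOLM-13 and 1.52-fold higher in HEL, and the deubiquitinase CYLD was 2.39-fold higher in MOLM-13 and 2.32-fold higher in HEL. IL1B, the cytokine gene, had 17.9 and 16.5 CPM in MOLM-13 P-body, against 4.57 and 2.42 CPM in MOLM-13 cytosol, and 149 and 141 CPM in HEL P-body, against 100 and 95.7 CPM in HEL cytosol. That is 5.05-fold for IL1B in MOLM-13 and 1.48-fold in HEL.

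In the list of IRAK, TRAF6 and TAK1 signalling, 6 of 16 tested genes were higher and 4 lower in each line. With library totals the counts were 6 higher and 5 lower in MOLM-13 and 3 higher and 8 lower in HEL, and with the trend removed 4 higher and 1 lower in MOLM-13 and 2 higher and 4 lower in HEL. MAP3K7 (TAK1) was 1.85-fold higher in MOLM-13 and 1.57-fold higher in HEL, but with the trend removed it was not called in either line, at log2 values of 0.10 and -0.11. Its partner TAB2, 1.85-fold higher in MOLM-13 and 1.90-fold higher in HEL, and its partner TAB1, 1.70-fold lower in MOLM-13 and 1.62-fold lower in HEL, likewise lost their calls in both lines with the trend removed. IRAK3, the inhibitory member of the IRAK family, was 1.83-fold higher in MOLM-13 P-bodies and called there under both alternatives, while its 1.43-fold rise in HEL was lost with library totals and came to -0.05 with the trend removed. IRAK2 had 1.13 and 1.69 CPM in HEL P-body, against 3.67 and 3.52 CPM in HEL cytosol, which is 2.54-fold lower and was called under both of these alternatives.

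In the list of kinases, inhibitors and subunits of NF-κB with the interferon regulatory factors, P-body levels were higher for 9 of 21 and lower for 6 in MOLM-13, and higher for 7 and lower for 9 in HEL. Of all genes tested, 32.4% were higher and 28.5% lower in MOLM-13, and 27.5% and 27.1% in HEL. With library totals they were 7 higher and 10 lower in MOLM-13 and 7 higher and 13 lower in HEL, and with the trend removed 13 higher and 2 lower in MOLM-13 and 8 higher and 3 lower in HEL. REL, the c-Rel subunit, had 83.5 and 81.3 CPM in MOLM-13 P-body, against 51.5 and 43.2 CPM in MOLM-13 cytosol, and 117 and 117 CPM in HEL P-body, against 31.4 and 32.3 CPM in HEL cytosol. With the trend removed REL kept a log2 change of 1.11 in HEL and lost its call in MOLM-13, at 0.079. RELB, of the alternative pathway, was 1.76-fold lower in MOLM-13 and 3.09-fold lower in HEL, and with the trend removed the MOLM-13 call was lost, at -0.054.

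NFKB2, the partner of RELB, was 3.08-fold lower in HEL P-bodies under TMM and was called lower there under both alternatives. In MOLM-13 the direction of NFKB2 depended on the setting, the gene being uncalled under TMM (log2 -0.06), called lower with library totals (-0.49) and called higher with the trend removed (0.46). RELA, the p65 subunit, was 1.74-fold lower in MOLM-13 and 1.69-fold lower in HEL, and neither call remained with the trend removed. NFKB1, the p50 precursor, had 55.1 and 54.1 CPM in MOLM-13 P-body, against 33.6 and 37.3 CPM in MOLM-13 cytosol, a difference no longer called with library totals. In HEL it had 28.2 and 48.5 CPM in P-body, against 46.4 and 82.7 CPM in cytosol, and the groups overlapped although the gene was called lower.

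The other Toll-like receptors gave few reads. Among TLR3, TLR5, TLR7, TLR8, TLR9 and TLR10, TLR3, a sensor of double-stranded RNA, was the one tested, in HEL. It had 3.01 and 3.12 CPM in HEL P-body, against 1.29 and 1.67 CPM in HEL cytosol (log2 1.04, edgeR adjusted p 0.0110). It was not called with library totals, by DESeq2, without HEL cytosol replicate 1 or with the trend removed, where the log2 value was 0.19. TLR9 had no count in any of the 8 libraries.

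The interleukin-1 receptor family signals through the same MYD88 and IRAK proteins. IL1RL1, the receptor of interleukin-33, had 10.5 and 10.5 CPM in HEL P-body, against 3.26 and 2.998 CPM in HEL cytosol, which is 3.36-fold and was also called with library totals and with the trend removed. IL18R1 (1.59-fold) and IL1RAP (1.54-fold) were higher in HEL P-bodies under TMM but were called under neither of these alternatives, and without HEL cytosol replicate 2 just 1 gene of the family was called. IL1RAP, the shared co-receptor, was 2.38-fold higher in MOLM-13 P-bodies and was called there under both.

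Of the accessory proteins, CD36, a co-receptor of TLR2 with TLR6, was 2.11-fold higher in HEL P-bodies, at 327 and 313 CPM in HEL P-body against 153 and 150 CPM in HEL cytosol. HSP90B1, the chaperone of Toll-like receptors, was 1.64-fold higher in MOLM-13 P-bodies, whereas in HEL it was uncalled under TMM and called lower with library totals (-0.18) and with the trend removed (-0.26). UNC93B1, which escorts the endosomal receptors, was 1.54-fold lower in MOLM-13 P-bodies and 1.93-fold lower in HEL P-bodies, and with the trend removed both calls were lost, at 0.14 in MOLM-13 and -0.32 in HEL. TICAM1 (TRIF), the adaptor of TLR3 and of endosomal TLR4, was 1.95-fold lower in MOLM-13 and 2.02-fold lower in HEL, and these calls were lost in the same way, at -0.36 in MOLM-13 and -0.40 in HEL.

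Of the other inflammatory target genes, PTGS2 (cyclooxygenase 2) had 7.11 and 6.40 CPM in MOLM-13 P-body, against 3.39 and 2.66 CPM in MOLM-13 cytosol, and 111 and 107 CPM in HEL P-body, against 24.7 and 20.8 CPM in HEL cytosol. With the trend removed PTGS2 kept a log2 change of 1.41 in HEL and lost its call in MOLM-13, at 0.36. CXCL8, a chemokine gene, was 2.82-fold higher in MOLM-13 P-bodies and called there under both alternatives, while its 1.797-fold rise in HEL was lost with library totals and came to -0.077 with the trend removed. TNF was 1.19-fold higher in MOLM-13 P-bodies, which turned to lower with library totals, and 1.49-fold lower in HEL P-bodies, a call lost with the trend removed (-0.22). ICAM1, an adhesion molecule, was 2.65-fold lower in HEL P-bodies, also under both alternatives, and was not called in MOLM-13.

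**Figure D4:**
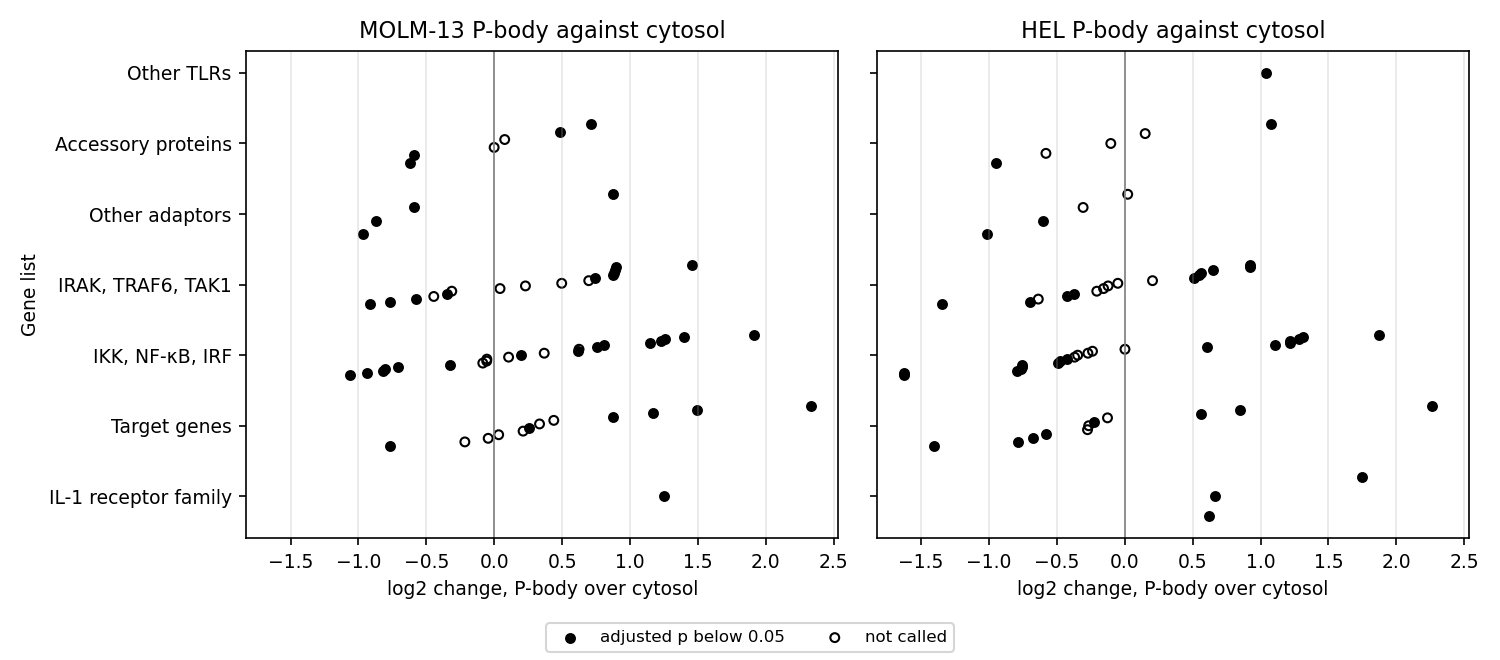
Log2 change of P-body over cytosol (horizontal axis, TMM scaling) for each tested gene of the 7 pathway lists (vertical axis, 1 point a gene) in MOLM-13 (left) and HEL (right); filled points had an adjusted p under 0.05 by edgeR. The points spread to both sides in most lists, with 24 higher and 16 lower in MOLM-13 and 21 higher and 21 lower in HEL.

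Pathway genes that were higher in P-bodies had a lower share of codons ending in G or C than those that were lower. In MOLM-13 the median was 44.3% for the 24 that were higher, 73.2% for the 16 that were lower and 66.8% for the 20 not called, beside 42.2%, 73.6% and 61.7% for all tested coding genes. In HEL it was 43.6% for the 21 higher, 71.3% for the 21 lower and 72.6% for the 19 not called, beside 41.5%, 70.2% and 60.6% for all coding genes. No difference between the pathway genes and all genes was tested.

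The genes whose levels followed TLR1 most closely over the 8 libraries were ranked by Pearson's r of log2 CPM among 17476 other genes. The first 5 were NIPBL (r = 0.9989), which loads cohesin, CEP135 (r = 0.9987), a centriole protein, IPO7 (r = 0.9983), a nuclear import receptor, CWC27 (r = 0.9981), a spliceosome-associated cyclophilin, and RSRC2 (r = 0.9980). These values are a description over 8 libraries in 4 groups, so they mostly reflect 4 group levels. CEP135, for example, averaged 331 ± 24 CPM (SD, n = 2) in MOLM-13 P-body and 97.2 ± 1.5 CPM in MOLM-13 cytosol, and 119 ± 4.0 CPM in HEL P-body and 35.9 ± 0.29 CPM in HEL cytosol.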

How the data were processed

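The authors deposited raw counts of reads per gene symbol, with 1 table a line, as whole numbers whose totals differ between libraries. Per the submitters' processing notes, reads were handled with STAR, SAMtools 1.12 and DESeq2 on GRCh38. No source used here names the counting program, its annotation or its strand setting. Per the labels' protocols, the kits were miRNeasy Micro for RNA and NEBNext Ultra II for libraries. A set of 112 symbols repeated on 1348 rows was left out, leaving 60196.

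In each line, P-body libraries were set against cytosolic libraries by edgeR 4.0.16, run in R 4.3.3 (TMM scaling, filterByExpr with a smallest count of 10, quasi-likelihood test, Benjamini-Hochberg adjustment over all genes tested, threshold 0.05). The lines were compared in a fit of all 8 libraries. The pipeline was tested on simulated counts. CPM values printed for a fraction comparison are scaled within the line, and those of the line comparison over the 8 libraries. Transcript features came from the GENCODE 29 transcript with the longest complete coding sequence, and 55900 symbols were matched. The GC and length trend was fitted with mgcv 1.9.3.

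Alternatives were DESeq2 1.42.0, other size factors, library totals, other filters, leaving out each library, a block on replicate number, and removal of the trend. The members and lists were chosen with earlier results of these data known. The text may name the members, the called genes and the extremes of each list, and the 5 genes most like TLR1.

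Counts of replicates were not copies of each other: their chi-square divided by its degrees of freedom was 1.88 in MOLM-13 P-body, 1.87 in MOLM-13 cytosol, 6.15 in HEL P-body and 4.55 in HEL cytosol. Intervals and floors cover counting error only, since reads without molecular identifiers are not independent molecules.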

Additional observations from a re-analysis of the deposited data

Results flagged for a closer look

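MYD88 was picked out because its libraries moved in opposite directions in the lines. Both P-body libraries were above both cytosolic libraries in MOLM-13, with a log2 difference of 0.30 ± 0.11 (SE), and both were below them in HEL, with -0.61 ± 0.14 (SE). The difference between the lines was not tested, because the MOLM-13 comparison was used to choose the genes. With library totals the MOLM-13 value was -0.14, so the opposite directions depended on the scaling. In HEL the P-body replicates were 36.4 and 25.6 CPM.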

How the results depend on the processing

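In HEL, TLR1, TLR4, TLR6 and IRAK4 kept their direction and their call under all 13 alternatives, with log2 changes of 1.70 to 2.58 for TLR1, 0.87 to 1.75 for TLR4, 0.60 to 1.18 for TLR6 and 0.48 to 1.02 for IRAK4. The number of members lower in HEL P-bodies was 1, and it was 4 with library totals, 2 with at least 5 CPM in 2 libraries, and 0 to 2 when each library was left out. HEL TIRAP ran from -0.23 to 0.038 when each library was left out, turning to 0.038 without HEL P-body replicate 2. It turned to 0.32 with the GC and length trend removed, with or without a replicate block. With library totals TIRAP was at -0.46, the 1 alternative of 13 that called it (edgeR adjusted p 0.0250). HEL IRAK1 was at -0.51 with library totals and turned to 0.44 with the trend removed, with or without the block. MOLM-13 MYD88 turned to -0.14 with library totals, and MOLM-13 IRAK4 to -0.029 with the trend removed and -0.032 with the block as well. Over both fractions, the MOLM-13 against HEL value of TLR4 turned to -0.067 with no filter. Apart from library totals and the trend removal, whose construction shifts all genes or genes by composition, the cause was not tested. Same-numbered libraries did not deviate together (correlation of deviations -0.010 in MOLM-13 and -0.068 in HEL), so the replicate numbers were not taken as pairs. A replicate block gave 8589 calls in MOLM-13, against 8573 without it, and 7996 in HEL, against 8067. Depth limits TLR2 in HEL and LY96, CD14 and TIRAP in MOLM-13, all with fewer than 30 counts in each library.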
